A study of Mus musculus with 12 samples.

Results

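The 37 genes described here are the enzymes of glycolysis that act after glucose phosphorylation and genes that are known to respond to low oxygen through the hypoxia-inducible factor (HIF). They were chosen by gene symbol, and all 37 were found among the 27179 gene IDs of the count table. By role they are 3 membrane transporters, 14 glycolytic enzymes, 4 enzymes that control the use of pyruvate, fructose phosphates and adenine nucleotides, 3 mitochondrial proteins, Hif1a with 2 of the Egln genes, and 10 other HIF target genes. Of the 37, 36 had at least 1 read in every library and 35 passed the filter on low counts and were tested. Aldoc, with 92 reads over the 12 libraries, and Eno2, with 11 reads, were not tested.

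RNA was sequenced from MC38-idAdpgkG cells, made by stable transfection of MC38, a colon carcinoma line of C57BL/6 mice, with a doxycycline-inducible and degradable Adpgk(R304M) fused to turboGFP. Adpgk is the ADP-dependent glucokinase, an enzyme that phosphorylates glucose. dTAG-13 is a small molecule that recruits the ubiquitin ligase subunit cereblon to a tagged protein. Every culture was given mouse interferon-gamma at 20 ng/mL for 51 h, and the control group had nothing else. The doxycycline group also had doxycycline at 1 µg/mL for the whole 51 h. The dTAG-13 group had interferon-gamma for 48 h before 1 µM dTAG-13 was added for 3 h, and the group with both compounds had doxycycline throughout and dTAG-13 for those same 3 h. No group was without interferon-gamma, and the labels list no low-oxygen treatment. The sources used here do not give the promoter of the transgene or say whether the line is 1 clone.

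Each group was 1 culture sequenced as 3 technical replicates, 12 libraries in all. A difference between groups is therefore a difference between 2 cultures, the treatment and the culture cannot be told apart, and the errors and p-values measure only the spread between libraries. Total counts ran from 22165538 to 32809573 per library, and the 37 genes held 1.42% to 1.59% of the reads. Adpgk rose with doxycycline, from 160.5 to 1338 CPM without dTAG-13 and from 181 to 1369 CPM with it (group means in counts-per-million, CPM), and reads of the endogenous gene and of the transgene were not separated. Of 10 markers of colon epithelium, none had enough reads to be tested and the highest group mean was 0.319 CPM (Cdh1), with Epcam, Cdx2 and Muc2 at 0 in every group. None of 5 leukocyte markers was tested either, while 2 of 3 markers of endothelium were. Of 5 markers of fibroblasts and mesenchyme 3 were tested. One of these 5 is Vim, an intermediate filament of mesenchymal cells, at 1502 CPM in control, which was named after its value was seen.

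Glycolysis converts glucose to pyruvate, and lactate dehydrogenase and the lactate exporter remove what is not oxidised. HIF is a dimer of an oxygen-labile alpha subunit, such as Hif1a, and the stable Arnt. In oxygen, the Egln prolyl hydroxylases mark the alpha subunit for the Vhl ubiquitin ligase, so that its activity is set mainly at the protein level. Stabilised HIF binds a short core motif, ACGTG or GCGTG, and raises the transcription of glucose transporters, glycolytic enzymes, mitophagy receptors, collagen prolyl hydroxylases and angiogenic factors. It also induces several of its own inhibitors, among them Egln1 and Egln3. Tumour cells often run a high level of glycolysis also when oxygen is present.

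The promoters of 5 members that the results turn on are shown because each moved in several comparisons and holds the HIF core motif in a window outside the gene itself. Ankrd37, which moved as much, is left out since its window lies within the gene. Each is the 250 bases before a RefSeq start site in GRCm38.p6, written in the direction of transcription, and capitals mark ACGTG or GCGTG on either strand, which read CACGT and CACGC where the match is on the other strand.
Adm, chr7:110627407-110627656, plus strand: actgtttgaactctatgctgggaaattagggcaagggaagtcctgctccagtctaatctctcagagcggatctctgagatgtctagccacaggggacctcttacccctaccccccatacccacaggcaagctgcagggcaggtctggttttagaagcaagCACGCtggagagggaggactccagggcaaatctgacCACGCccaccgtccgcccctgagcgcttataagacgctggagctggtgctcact
Car9, chr4:43506776-43507025, plus strand: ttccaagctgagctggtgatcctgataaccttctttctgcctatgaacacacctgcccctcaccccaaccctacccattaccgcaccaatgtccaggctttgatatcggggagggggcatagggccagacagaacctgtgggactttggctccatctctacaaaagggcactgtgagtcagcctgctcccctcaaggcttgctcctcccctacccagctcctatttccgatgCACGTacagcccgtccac
P4ha2, chr11:54100674-54100923, plus strand: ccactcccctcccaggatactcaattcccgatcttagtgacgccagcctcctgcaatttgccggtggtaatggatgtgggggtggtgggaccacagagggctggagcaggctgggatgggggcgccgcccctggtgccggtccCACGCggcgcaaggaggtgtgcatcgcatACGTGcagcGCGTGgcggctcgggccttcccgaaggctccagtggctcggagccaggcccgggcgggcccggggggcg
Bnip3, chr7:138909507-138909756, minus strand: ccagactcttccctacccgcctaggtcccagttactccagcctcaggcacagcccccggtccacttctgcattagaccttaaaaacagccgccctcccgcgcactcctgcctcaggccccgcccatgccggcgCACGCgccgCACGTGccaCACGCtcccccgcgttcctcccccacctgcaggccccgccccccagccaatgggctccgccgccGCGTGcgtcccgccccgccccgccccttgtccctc
Egln1, chr8:124949255-124949504, minus strand: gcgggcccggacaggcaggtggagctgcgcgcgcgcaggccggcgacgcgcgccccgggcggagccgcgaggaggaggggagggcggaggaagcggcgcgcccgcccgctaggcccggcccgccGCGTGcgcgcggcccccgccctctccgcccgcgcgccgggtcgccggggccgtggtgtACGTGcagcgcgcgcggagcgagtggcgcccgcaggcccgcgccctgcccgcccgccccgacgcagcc
Adm encodes the vasodilator peptide adrenomedullin, Car9 a membrane carbonic anhydrase, P4ha2 a catalytic subunit of collagen prolyl 4-hydroxylase, Bnip3 a mitophagy receptor and Egln1 the main HIF prolyl hydroxylase. In Adm, 2 matches began 90 and 54 bases before the start site. In Car9 a single match began 18 bases before it, and in Egln1 the matches began 126 and 68 bases before it. In P4ha2, 3 matches began 107, 78 and 69 bases before the start site. Bnip3 had 5, between 117 and 35 bases before it. A palindrome, CACGTG, counts once on each strand.

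Such matches are common in the promoters of expressed genes. A promoter entry was found for 33 of the 37 members, with none for Bnip3l, Slc2a3, Ndrg1 and Bhlhe40, and 30 of the 33 (90.9%) had ACGTG or GCGTG on either strand within 250 bases of a start site. The same was found for 62.2% of 9754 genes tested for expression and for 41.5% of 27025 genes in the whole table. Per promoter rather than per gene, the shares were 79.2% of 53 windows of members, 56.3% of 12375 windows of tested genes and 38.6% of all 32851. ACGTG alone was found for 20 of the 33 members (60.6%) and for 25.3% of the tested genes. These letters describe the sequence and do not show that the factor was bound.

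Among the members, glycolytic enzymes had the highest levels for their length in control cells. In CPM per kilobase (kb) of transcript, Pkm, the pyruvate kinase, was highest of the 37 at 1649 CPM per kb. Aldoa, the aldolase, followed at 1047, Ldha, a lactate dehydrogenase subunit, at 928 and Tpi1, the triose phosphate isomerase, at 645 CPM per kb. The most abundant transporter was Slc16a3, the lactate exporter MCT4, at 232 CPM per kb, against 121 for Slc2a1, the glucose transporter GLUT1, and 1.71 for Slc2a3, the glucose transporter GLUT3. Among phosphofructokinase genes the order was Pfkl (89.8), Pfkm (31.0) and Pfkp (20.8 CPM per kb). The lowest tested members were Car9 (1.51), Slc2a3 and Pfkfb3 (1.84 CPM per kb), and Aldoc and Eno2, the brain-type aldolase and enolase, were at 0.0632 and 0.00423.

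Several members share long stretches of sequence with other genes. Of the 50-base windows of the Gapdh transcript, 82.5% were also found in transcripts of other genes, 222 of them, and Gapdh stood at 95.0 CPM per kb. One of its pseudogenes, Gapdh-ps15, had 162 CPM in control where Gapdh had 135. For Eno1, 72.2% of windows were shared, 70.5% with Eno1b, which had 714 CPM in control beside 843 for Eno1. Shared windows made up 68.0% for Pgk1, 62.4% for Bnip3, 41.5% for Pgam1, 36.6% for Higd1a and 34.4% for Pkm, and the counting could have split the reads of all these genes, so that their values are uncertain. No window was shared for P4ha1, P4ha2, Adm, Kdm3a, Egln1, Egln3, Pdk1, Slc16a3, Slc2a3 and Pfkm. Exons overlapped those of a gene on the opposite strand for 22.7% of Ankrd37 (Lrp2bp), 22.3% of Bnip3 (Gm45507) and 22.5% of Higd1a (Gm47112). Such overlaps were 11.5% for Gpi1 (Gm26762) and 9.3% for Car9 (Gm12454), and the strand setting of the counting is not given in the sources used here. On the same strand, exons overlapped for 15.3% of Pkm (Gm49759), 10.2% of Pfkm (Gm26513) and 2.5% of Hif1a (Gm49321).

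**Figure D1:**
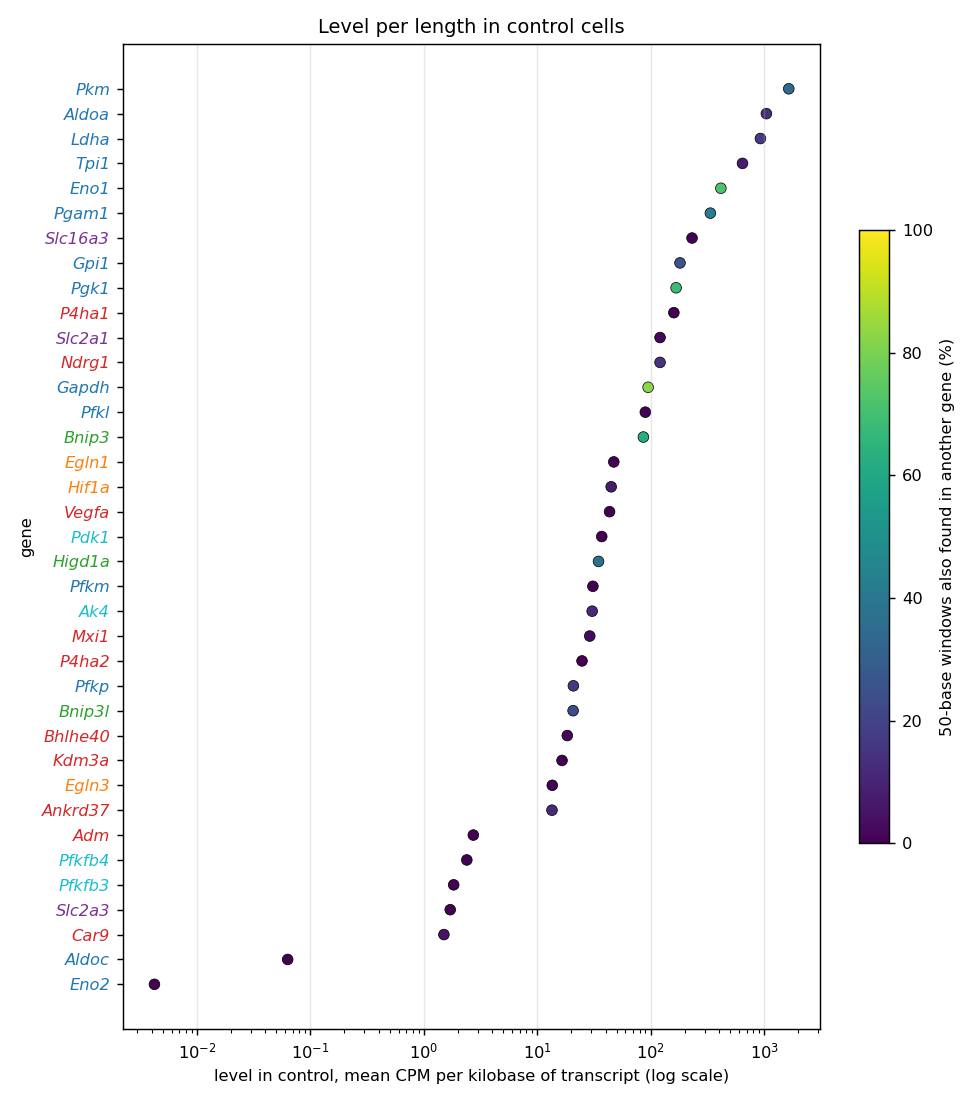
Level per length of the 37 genes in control cells. The x axis is the mean CPM per kilobase of transcript on a log scale, the colour of a name gives its role (blue for glycolytic enzymes, purple for transporters, red for HIF targets, green for mitochondrial proteins, orange for Hif1a and Egln genes, cyan for metabolic control), and the colour of a point gives the percent of 50-base windows also found in another gene. Pkm stands highest at 1649 CPM per kb, and Gapdh carries the largest shared percentage, 82.5%.

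The 10 genes grouped by role as HIF targets were higher with each compound alone than in control. Most were lower with both compounds than with either alone. The transporters, glycolytic enzymes and Egln genes, which HIF can also raise, were grouped apart and did not all follow. Members, lists and tests were chosen with earlier results of these data known, so counts and medians by role are a description only. With doxycycline 0 of 3 transporters were higher and 2 lower, and 3 of 12 tested glycolytic enzymes were higher and 0 lower. Hif1a and the 2 Egln genes had 2 higher and 0 lower with doxycycline, and 0 higher and 2 lower with dTAG-13. With doxycycline against control, 18 tested members were higher and 2 lower, so 57.1% were called against 33.5% of all 12910 tested genes (edgeR, Benjamini-Hochberg adjusted p under 0.05). Higher calls made up 14.8% of all genes and lower calls 18.7%. All 10 genes grouped by role as HIF targets were called higher, with a median log2 fold change of 0.30 beside -0.01 over all genes, and 9 or 10 of them were called under each of 21 alternative settings.

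With dTAG-13 against control, 18 members were higher and 10 lower (80.0% called, against 62.1% of all genes, 30.0% higher and 32.1% lower). All 10 HIF targets were called higher, with a median log2 fold change of 0.34, while 6 of 12 tested glycolytic enzymes were lower and 4 higher. With scaling by library size alone the split of the members was 23 higher and 5 lower, beside 64.8% of all genes called. The median of all genes then moved from 0.019 to 0.11. This comparison shares its control libraries with the one of doxycycline, so that the 2 sets of values are not independent.

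In cells with doxycycline, dTAG-13 went with lower levels of most members: 5 were higher and 24 lower (82.9% called, against 64.1% of all genes, 30.7% higher and 33.4% lower). Of the HIF targets, 8 were lower and 1, Vegfa, was higher, and of the glycolytic enzymes 9 were lower and 2 higher. In cells with dTAG-13, doxycycline went with 1 member higher and 25 lower (74.3% called, against 20.4% of all genes, 10.7% higher and 9.64% lower). The lower members included 9 of the 10 HIF targets, with a median log2 fold change of -0.41 over the 10, beside -0.001 over all genes. Against control, both compounds together went with 10 members higher and 17 lower (77.1% called, against 66.3% of all genes, 32.5% higher and 33.8% lower), and 4 HIF targets were higher, 2 lower and 4 not called.

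**Figure D2:**
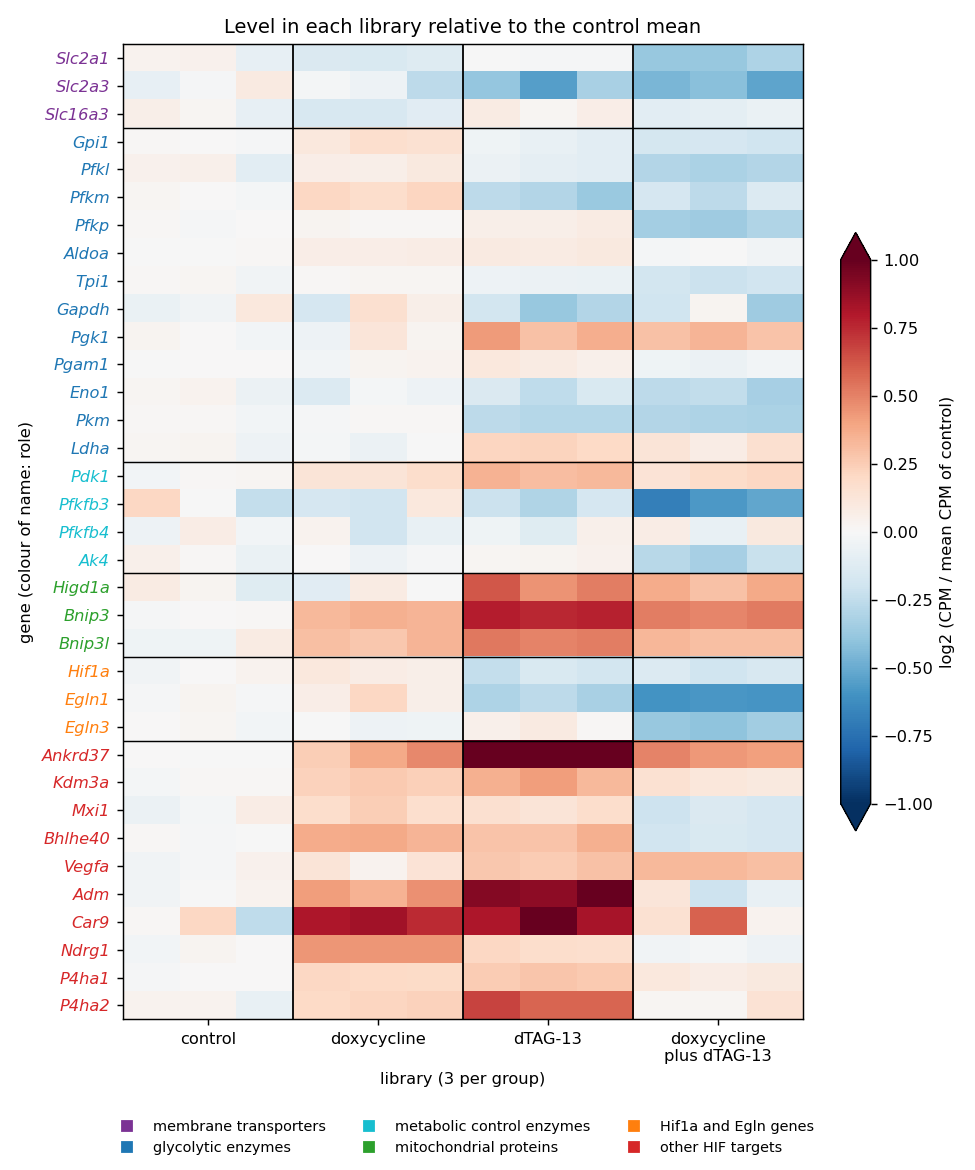
Level of the 35 tested genes in each of the 12 libraries, as the log2 ratio of CPM to the control mean. Rows are genes grouped by role, columns are libraries with 3 per group, and the colour scale ends at -1 and 1, so that larger ratios have the end colour. Most HIF target genes are red with doxycycline and with dTAG-13 and pale or blue with both, and Pkm, Pfkm and Egln1 are blue in both groups with dTAG-13.

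Transcript length moved with the differences with dTAG-13. Over the 11745 tested genes (91.0%) whose length was available, the Spearman correlation between log2 fold change and length was -0.44 with dTAG-13 alone against control and -0.58 with dTAG-13 in doxycycline cells, so that shorter transcripts had higher values. With doxycycline against control it was 0.11. Over the 35 members the same correlations were -0.26, -0.22 and -0.17. These describe genes within 1 set of libraries, which are not independent replicates. A second fit therefore corrected each library for length and GC content, and its values are given below for the effects of dTAG-13 on members that it moved most. Values of single genes were taken from it for the members only, so that genes of the other lists are given without it. The members called were then 21 higher and 8 lower for dTAG-13 against control, beside 56.1% of all 11745 genes called. They were 6 higher and 26 lower for dTAG-13 in doxycycline cells, beside 53.5% of all genes called. In the latter the value for Bnip3 turned from 0.17 to -0.19, and that for Pgk1 moved from 0.27 to 0.11. Values for Higd1a, Vegfa, Bhlhe40, Ndrg1 and Car9 stayed within 0.08 of those without it.

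**Figure D3:**
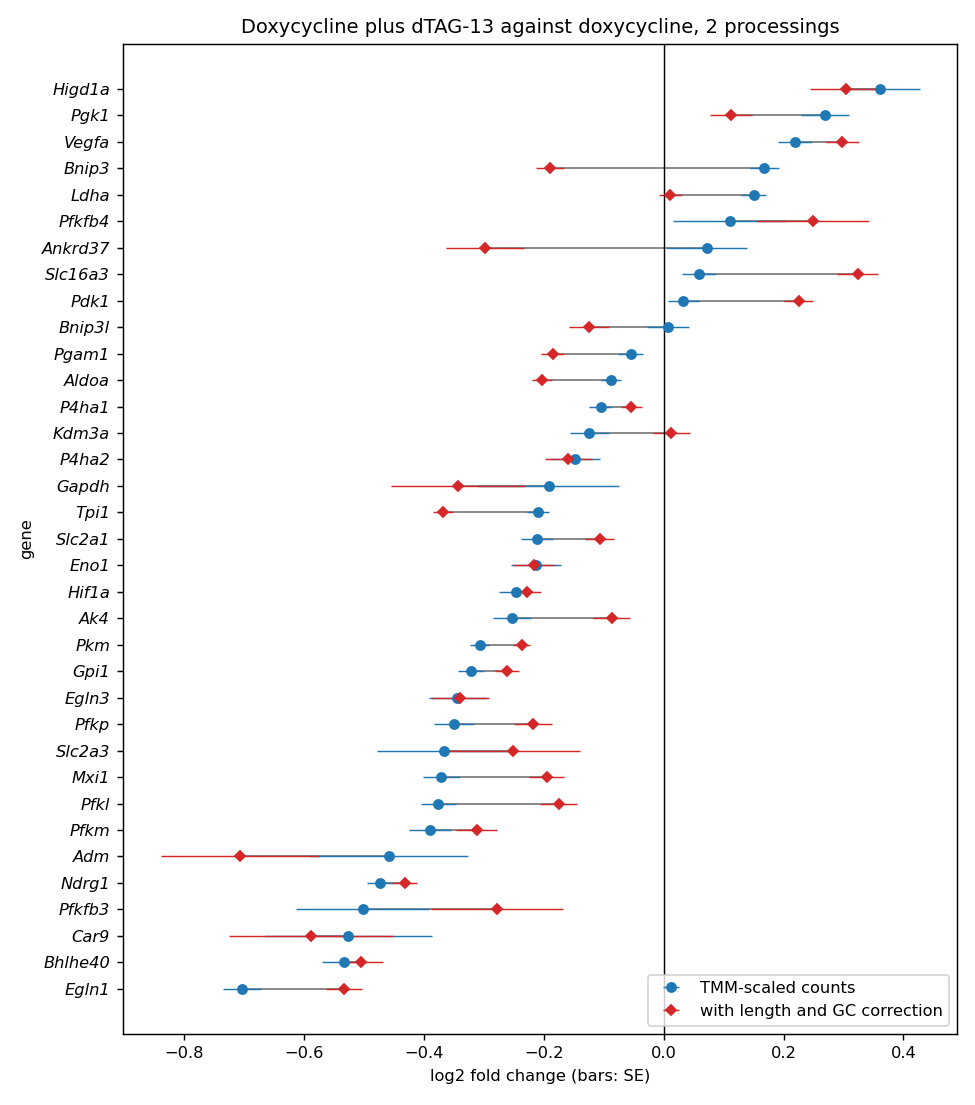
Log2 fold change of dTAG-13 in doxycycline cells for the 35 tested genes from TMM-scaled counts (blue) and after the length and GC correction (red), with SE as bars. Egln1 is the lowest under TMM at -0.70 and Adm the lowest after the correction at -0.71. Bnip3, Bnip3l, Ankrd37 and Kdm3a change side of 0.

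Hif1a was the alpha subunit expressed in these cells. It stood at 207, 212 and 217 CPM in the control libraries, 228, 223 and 221 with doxycycline, 179, 191 and 186 with dTAG-13 and 193, 184 and 189.8 with both compounds. All 3 libraries of either dTAG-13 group were below every control and doxycycline library, and the groups with dTAG-13 overlapped each other. The log2 fold change with dTAG-13 was -0.19 (SE 0.027, adjusted p 4.96e-08) without doxycycline and -0.25 (SE 0.027, adjusted p 1.41e-10) with it, and with library size scaling the first was -0.10. With doxycycline against control it was 0.080 (SE 0.027, adjusted p 0.0162). That call was lost without control replicate 1, at 0.060, without doxycycline replicate 1, at 0.077, and after the length and GC correction, at 0.025. Epas1, the other main alpha subunit, and Hif3a had at most 0.0317 CPM in any group.

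Egln1, the prolyl hydroxylase that limits HIF in oxygen, had its lowest level with both compounds. It was at 168, 174 and 168 CPM in the control libraries, 178, 196 and 178 with doxycycline, 137, 142 and 136 with dTAG-13 and 113, 113 and 113 with both compounds. The 4 groups did not overlap, in the order doxycycline, control, dTAG-13, both. The log2 fold change was 0.11 (SE 0.03, adjusted p 0.00275) with doxycycline and -0.30 (SE 0.031, adjusted p 4.79e-11), or -0.15 after the length and GC correction, with dTAG-13. In cells with doxycycline, dTAG-13 went with a change of -0.70 (SE 0.031, adjusted p 1.37e-21), or -0.53 after the length and GC correction. Before the correction it was the most negative value of any member in that comparison, while the median over all genes of similar length was -0.075. Egln3, a hydroxylase of the same family, was at 36.1, 35.4, 37.4 and 27.9 CPM on average in control, doxycycline, dTAG-13 and both. It was called lower with both compounds, at -0.34 (SE 0.048, adjusted p 4.52e-08) against doxycycline and -0.43 (SE 0.047, adjusted p 3.03e-09) against dTAG-13. With doxycycline alone the value was -0.032 and with dTAG-13 alone 0.050, neither called.

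Of 14 other genes of oxygen sensing, 12 were tested. With doxycycline 2 were higher and 2 lower, a share of 33.3% beside 33.5% of all genes. With dTAG-13 4 were higher and 6 lower, or 83.3% beside 62.1%. Cited2, which competes with HIF for its coactivators, fell with doxycycline by 0.38 on the log2 scale, from 146 to 112 CPM. The coactivators themselves, Ep300 and Crebbp, had the largest changes with dTAG-13, at -0.78 (SE 0.033, adjusted p 7.57e-23) and -0.83 (SE 0.058, adjusted p 1.10e-14). Both also fell with dTAG-13 in cells with doxycycline, at -0.69 and -0.68. None of these values was corrected for length and GC, and longer transcripts had lower values with dTAG-13. Arnt, the partner of Hif1a, was at 114, 128, 105 and 114 CPM in control, doxycycline, dTAG-13 and both, and Vhl, the substrate receptor of the ligase, at 45.3, 46.7, 62.0 and 54.8 CPM.

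Ankrd37, an ankyrin repeat protein and HIF target, rose with each compound, and most with dTAG-13. It was at 12.6, 12.5 and 12.5 CPM in the control libraries, 14.8, 16.3 and 17.5 with doxycycline, 26.8, 26.8 and 27.6 with dTAG-13 and 17.6, 16.9 and 16.7 with both compounds. Every treated library was above every control library, the dTAG-13 libraries stood highest, and the doxycycline and combined groups overlapped. The log2 fold change was 0.37 (SE 0.068, adjusted p 3.14e-05) with doxycycline and 1.11 (SE 0.064, adjusted p 1.22e-18) with dTAG-13. The latter was the largest of any member in that comparison, but after the length and GC correction it was 0.86, beside 0.87 for Adm and 0.87 for Car9. With both against dTAG-13 alone it was -0.67 (SE 0.063, adjusted p 3.39e-11). With both against doxycycline it was 0.072 (SE 0.067, adjusted p 0.355), and this became -0.30 after the length and GC correction. At 927 bases Ankrd37 was the shortest member, and genes of similar length had a median of 0.40 in that comparison. Its value with both compounds against control, 0.44 (SE 0.069, adjusted p 4.04e-07), was 0.096 and not called after the correction.

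Adm, the vasodilator peptide, had the largest difference of any member between dTAG-13 alone and both compounds. It was at 3.70, 3.80 and 3.90 CPM in the control libraries, 5.08, 4.83 and 5.21 with doxycycline, 7.20, 7.08 and 9.40 with dTAG-13 and 4.14, 3.301 and 3.61 with both compounds. The dTAG-13 libraries were highest and the doxycycline libraries next, and those with both overlapped the control libraries. The log2 fold changes were 0.41 (SE 0.13, adjusted p 0.0112) with doxycycline, 1.05 (SE 0.12, adjusted p 4.52e-10) with dTAG-13 and -1.10 (SE 0.12, adjusted p 3.55e-09) for both against dTAG-13. Against doxycycline, both compounds went with -0.46 (SE 0.13, adjusted p 0.00248), or -0.71 after the length and GC correction. dTAG-13 replicate 3 held the highest of the 3 values, and without it the change with dTAG-13 was 0.90.

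Car9, which helps tumour cells to control pH, rose with each compound. It was at 3.08, 3.51 and 2.56 CPM in the control libraries, 5.34, 5.47 and 5.11 with doxycycline, 5.33, 6.50 and 5.41 with dTAG-13 and 3.39, 4.60 and 3.13 with both compounds. The doxycycline and dTAG-13 libraries overlapped each other and lay above all libraries of the other 2 groups, which also overlapped. With doxycycline the log2 fold change was 0.80 (SE 0.14, adjusted p 1.62e-05), the largest of any member in that comparison, and with dTAG-13 it was 0.91 (SE 0.14, adjusted p 2.79e-07). Both compounds went with -0.53 (SE 0.14, adjusted p 0.00108) against doxycycline and -0.64 (SE 0.14, adjusted p 5.12e-04) against dTAG-13. At 1572 reads in all, Car9 and Adm, with 1806, had the widest errors among these targets.

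Ndrg1, a stress-responsive gene linked to differentiation, was highest with doxycycline alone. Its levels were 342, 355 and 351 CPM in the control libraries, 475, 474 and 474 with doxycycline, 402, 396 and 394 with dTAG-13 and 342, 345 and 338 with both compounds. Doxycycline libraries were highest, dTAG-13 libraries were between them and control, and the libraries with both overlapped control. The log2 fold change was 0.44 (SE 0.022, adjusted p 7.91e-20) with doxycycline and 0.18 (SE 0.022, adjusted p 1.23e-09) with dTAG-13, while both compounds against doxycycline gave -0.47 (SE 0.022, adjusted p 1.24e-21). Ndrg1 had no promoter entry, so its motif content was not examined.

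Bhlhe40, a transcriptional repressor, fell below control with both compounds. It was at 57.9, 57.0 and 57.2 CPM in the control libraries, 74.0, 74.6 and 72.7 with doxycycline, 70.0, 69.9 and 73.5 with dTAG-13 and 50.3, 51.7 and 51.0 with both compounds. The single-compound groups overlapped each other above control, and all 3 libraries with both were below every control library. The change was 0.36 (SE 0.036, adjusted p 1.05e-10) with doxycycline, 0.31 (SE 0.036, adjusted p 8.21e-10) with dTAG-13 and -0.17 (SE 0.038, adjusted p 1.48e-04) with both against control. Mxi1, a repressor of the Myc network, had the same order of group means, at 146, 168, 163 and 129.8 CPM in control, doxycycline, dTAG-13 and both. Its change with dTAG-13 was 0.16 (SE 0.03, adjusted p 1.83e-05), or 0.27 after the length and GC correction, and in doxycycline cells -0.37 (SE 0.031, adjusted p 1.29e-13), or -0.20 after the length and GC correction. Its change with both against control, -0.17 (SE 0.031, adjusted p 7.04e-06), was -0.033 and lost its call once length and GC were corrected.

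P4ha1 and P4ha2, the catalytic subunits of the enzyme that hydroxylates collagen, were both highest with dTAG-13 alone. P4ha2 was at 57.7, 57.7 and 53.2 CPM in the control libraries, 64.5, 65.3 and 65.8 with doxycycline, 89.8, 84.2 and 84.2 with dTAG-13 and 57.1, 57.0 and 62.0 with both compounds. dTAG-13 libraries were highest, and those with both compounds overlapped control. Its log2 fold change was 0.61 (SE 0.04, adjusted p 4.42e-17) with dTAG-13 and -0.55 (SE 0.04, adjusted p 2.91e-14) for both against dTAG-13. P4ha1 was 647 ± 3.35 CPM in control, 743 ± 2.81 with doxycycline, 778 ± 6.90 with dTAG-13 and 691 ± 8.99 with both (mean ± SD, n = 3 libraries), a change of 0.27 (SE 0.019, adjusted p 1.24e-15) with dTAG-13. In doxycycline cells it was -0.10 (SE 0.019, adjusted p 7.03e-06), or -0.054 after the length and GC correction. Kdm3a, a histone demethylase, was at 80.3, 95.2, 104 and 87.4 CPM in the same order of groups, and its fall with dTAG-13 in doxycycline cells, -0.12 (SE 0.033, adjusted p 0.00105), was 0.013 and lost its call once length and GC were corrected.

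Vegfa, the angiogenic growth factor, was highest with both compounds. It was at 146, 149 and 155 CPM in the control libraries, 164, 153 and 165 with doxycycline, 180.5, 179 and 184 with dTAG-13 and 188, 188 and 185 with both compounds. The 2 groups with dTAG-13 lay above the 2 without it, the group with both was above the other, and the doxycycline and control libraries overlapped. With both against dTAG-13 alone the log2 fold change was 0.044, which was not called. The log2 fold change with dTAG-13 was 0.27 (SE 0.028, adjusted p 3.17e-11) without doxycycline and 0.22 (SE 0.028, adjusted p 7.31e-09) with it. With doxycycline against control it was 0.099 (SE 0.028, adjusted p 0.00543), a call lost without control replicate 1 (0.078) and without doxycycline replicate 3 (0.077). The difference between the 2 effects of dTAG-13 was -0.055 (SE 0.04, adjusted p 0.351), which was not called, while that of the other 9 HIF targets was.

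**Figure D4:**
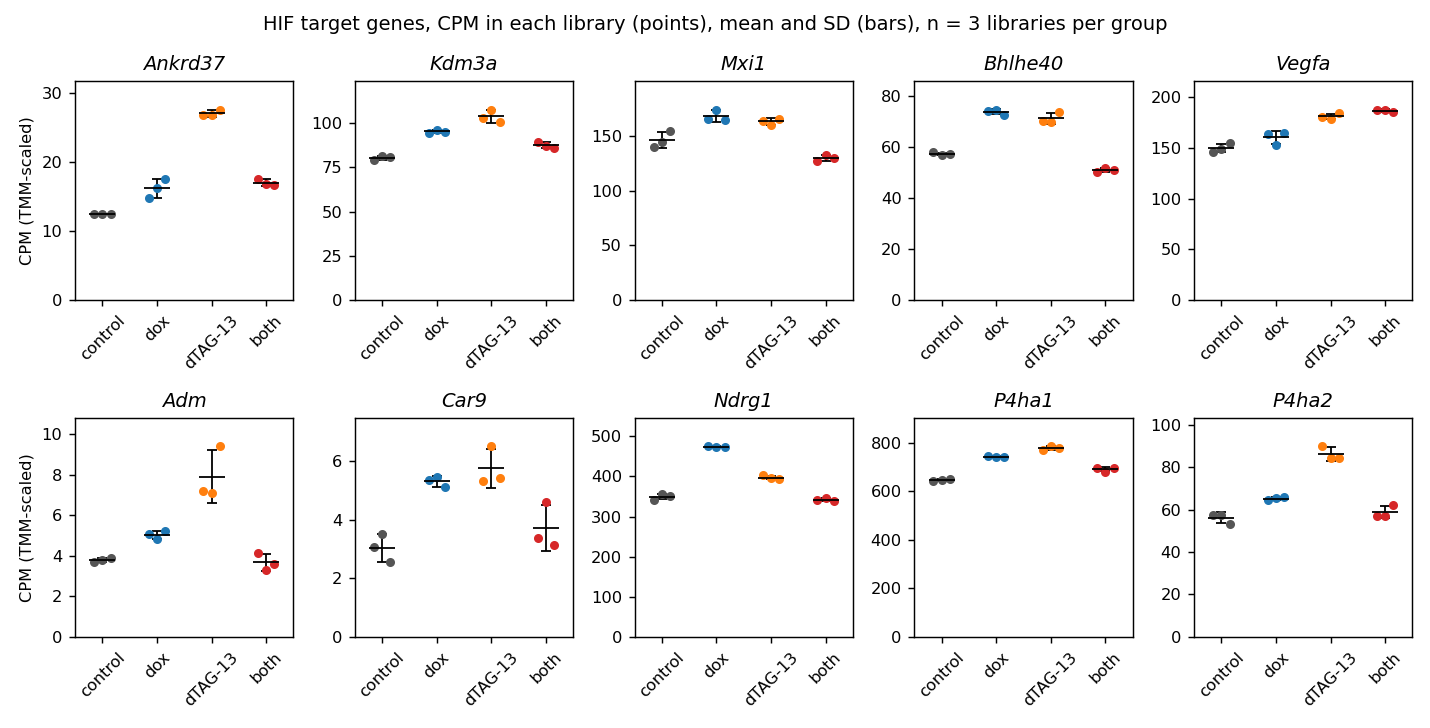
CPM of the 10 HIF target genes in each library (points), with the mean and SD of 3 libraries (bars) and an axis from 0 for each gene. In 9 of the 10 genes the level with both compounds is below that with dTAG-13 alone. Vegfa is highest with both, a difference from dTAG-13 alone that was not called.

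All 3 mitochondrial members rose with dTAG-13 in cells without doxycycline, where 30.0% of all genes were called higher. In doxycycline cells 2 were called higher, Higd1a and Bnip3, beside 30.7% of all genes. After the length and GC correction Higd1a alone was called higher. Bnip3, a mitophagy receptor, was at 150.3, 152 and 152 CPM in the control libraries, 189.6, 194 and 192 with doxycycline, 261, 255 and 258 with dTAG-13 and 216, 212 and 218 with both compounds. The 4 groups did not overlap, in the order control, doxycycline, both, dTAG-13. The log2 fold change was 0.34 (SE 0.025, adjusted p 1.64e-14) with doxycycline and 0.77 (SE 0.024, adjusted p 3.22e-27), or 0.42 after the length and GC correction, with dTAG-13. In cells with doxycycline, dTAG-13 went with a change of 0.17 (SE 0.024, adjusted p 1.15e-07), which turned to -0.19, called lower, after the correction.

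Higd1a, a protein of the respiratory chain that is induced in hypoxia, was at 82.0, 79.0 and 71.4 CPM in the control libraries, 71.5, 81.8 and 77.3 with doxycycline, 119, 106 and 110.4 with dTAG-13 and 100.4, 94.7 and 101 with both compounds. Both groups with dTAG-13 were above both groups without it, which overlapped each other. Its change with dTAG-13 was 0.53 (SE 0.064, adjusted p 2.35e-05) without doxycycline and 0.36 (SE 0.066, adjusted p 5.31e-04) with it, the largest positive value of any member in the latter comparison. After the length and GC correction the latter was 0.30, below that of Slc16a3. Bnip3l, a relative of Bnip3 with the same role, was at 67.5, 83.2, 96.2 and 83.7 CPM in control, doxycycline, dTAG-13 and both. Its change with dTAG-13 was 0.51 (SE 0.035, adjusted p 2.51e-16), or 0.33 after the length and GC correction, and in cells with doxycycline it was 0.008 (SE 0.035, adjusted p 0.856), which became -0.12, called lower, after the correction.

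Among the transporters, Slc2a1 (GLUT1) was lower with doxycycline whether or not dTAG-13 was present. It was at 404, 407 and 373 CPM in the control libraries, 356, 354 and 360.5 with doxycycline, 394, 391 and 392 with dTAG-13 and 303, 303 and 319 with both compounds. The control and dTAG-13 libraries overlapped and stood above the doxycycline libraries, and those with both compounds were lowest. Doxycycline went with -0.14 (SE 0.026, adjusted p 2.96e-05) without dTAG-13 and -0.35 (SE 0.026, adjusted p 2.66e-13) with it. dTAG-13 went with -0.008 (SE 0.026, adjusted p 0.804) without doxycycline, which was 0.083 with library size scaling and 0.075 after the length and GC correction, both called. With doxycycline it went with -0.21 (SE 0.026, adjusted p 6.31e-09), or -0.11 after the length and GC correction.

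Slc16a3, the lactate exporter, was at 1044, 1020 and 948 CPM in the control libraries, 899, 896 and 929 with doxycycline, 1062, 1019 and 1050 with dTAG-13 and 936, 939.7 and 961 with both compounds. Doxycycline libraries were lowest, and control and dTAG-13 libraries overlapped. dTAG-13 went with 0.056 (SE 0.028, adjusted p 0.0921) without doxycycline and 0.059 (SE 0.028, adjusted p 0.0745) with it. After the length and GC correction these were 0.29 and 0.32, both called, and the latter was the largest positive corrected value of any member in that comparison. The change with doxycycline was -0.14 (SE 0.028, adjusted p 4.09e-04) without dTAG-13 and -0.14 (SE 0.028, adjusted p 9.83e-04) with it. Both compounds against control gave -0.087 (SE 0.028, adjusted p 0.0103), a call lost without replicate 2 of the combined group, at -0.083, and with library size scaling, at -0.030, and turned to 0.18 by the length and GC correction.

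Slc2a3 (GLUT3), at a far lower level, was at 6.40, 6.73 and 7.20 CPM in the control libraries, 6.70, 6.54 and 5.66 with doxycycline, 5.17, 4.63 and 5.41 with dTAG-13 and 4.95, 5.07 and 4.69 with both compounds. Both groups with dTAG-13 were below both groups without it. The change with dTAG-13 was -0.42 (SE 0.11, adjusted p 8.76e-04) without doxycycline, the most negative value of any member in that comparison before the length and GC correction, and -0.37 (SE 0.11, adjusted p 0.00441) with doxycycline. The latter was -0.25 and lost its call after the correction.

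The glycolytic enzymes did not move as 1 group. With doxycycline 3 of the 12 tested were higher, Pfkm by 0.20, Gpi1, which interconverts glucose and fructose 6-phosphate, by 0.14 and Aldoa by 0.069 on the log2 scale. That share called, 25%, was below the 33.5% of all genes. With dTAG-13 without doxycycline, Ldha, Pgk1, Pgam1 and Aldoa were higher and Gpi1, Pfkl, Pfkm, Tpi1, Eno1 and Pkm lower. After the length and GC correction Aldoa (0.033), Gpi1 (-0.036) and Pgam1 (-0.014) lost their calls there, Pfkl was higher and Tpi1 was at -0.16. In cells with doxycycline, dTAG-13 went with higher Pgk1 and Ldha, and 9 of the 12 were lower. The shares called with dTAG-13 were 83.3% without doxycycline and 91.7% with it, beside 62.1% and 64.1% of all genes. The median log2 fold change of the 12 was 0.022 with doxycycline, -0.067 with dTAG-13 and -0.21 with dTAG-13 in doxycycline cells. Over all genes the medians were -0.01, 0.019 and 0.003.

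Pfkm and Pfkl encode subunits of phosphofructokinase, the committed step of the pathway. Pfkm was at 90.3, 89.4 and 87.7 CPM in the control libraries, 103, 101 and 104 with doxycycline, 74.3, 72.9 and 69.0 with dTAG-13 and 79.2, 74.3 and 80.9 with both compounds. Doxycycline libraries were highest, control next, and the 2 groups with dTAG-13 overlapped below control. Its change was 0.20 (SE 0.034, adjusted p 1.02e-05) with doxycycline and -0.31 (SE 0.035, adjusted p 6.07e-10) with dTAG-13. With both against dTAG-13 it was 0.12 (SE 0.036, adjusted p 0.0174), the single member called higher there. That call was lost without replicate 1 or 3 of the combined group (0.11 and 0.089), without dTAG-13 replicate 3 (0.088) and with library size scaling (0.082).

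Pfkl was at 346, 347 and 312 CPM in the control libraries, 350.1, 348 and 359 with doxycycline, 322, 315 and 312 with dTAG-13 and 273, 268 and 274 with both compounds. The libraries with both compounds were below all others, the doxycycline libraries were above all others, and control replicate 3 lay just below the lowest dTAG-13 library, apart from the other control libraries. The change with both was -0.38 (SE 0.03, adjusted p 3.93e-12), or -0.17 after the length and GC correction, against doxycycline, and -0.22 (SE 0.03, adjusted p 1.99e-06) against dTAG-13. With dTAG-13 alone it was -0.083 (SE 0.029, adjusted p 0.0154), a call lost without control replicate 1 (-0.066) or 2 (-0.064). Without control replicate 3 it was -0.14, with library size scaling 0.008 and after the length and GC correction 0.093. Pfkp, the platelet-type subunit, was at 86.4, 87.6, 90.4 and 68.7 CPM in control, doxycycline, dTAG-13 and both, and fell with both compounds, by 0.35 against doxycycline (-0.22 after the length and GC correction) and by 0.40 against dTAG-13 on the log2 scale. With dTAG-13 alone it was at 0.065, not called, and at 0.15, called, after the correction.

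Pkm, the most abundant member, was at 4037, 4049 and 3946 CPM in the control libraries, 3981, 4042 and 4038 with doxycycline, 3344, 3292 and 3285 with dTAG-13 and 3281, 3243 and 3227 with both compounds. All 6 libraries with dTAG-13 were below all 6 without it. Control and doxycycline overlapped, and the libraries with both lay just below those with dTAG-13 alone. dTAG-13 went with -0.28 (SE 0.016, adjusted p 4.80e-19) without doxycycline and -0.31 (SE 0.016, adjusted p 2.32e-20) with it. After the length and GC correction the values were -0.22 and -0.24. Doxycycline went with 0.003 (SE 0.016, adjusted p 0.897) without dTAG-13 and -0.025 (SE 0.016, adjusted p 0.282) with it, neither called.

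Ldha, which turns pyruvate into lactate, was higher with dTAG-13. It was at 1711, 1713 and 1627 CPM in the control libraries, 1657, 1618 and 1675 with doxycycline, 1959, 1962 and 1935 with dTAG-13 and 1843, 1773 and 1879 with both compounds. The groups with dTAG-13 lay above those without it. Its change with dTAG-13 was 0.21 (SE 0.02, adjusted p 2.15e-11), or 0.10 after the length and GC correction, without doxycycline and 0.15 (SE 0.02, adjusted p 5.39e-08) with it. The latter was 0.011 and not called after the correction. Pgk1, the phosphoglycerate kinase, was at 311, 306 and 299.9 CPM in the control libraries, 296, 333 and 312 with doxycycline, 411, 376 and 394 with dTAG-13 and 374, 386 and 372 with both compounds. Again every library with dTAG-13 was above every library without it, with changes of 0.36 (SE 0.04, adjusted p 2.47e-06), or 0.23 after the length and GC correction, and 0.27 (SE 0.04, adjusted p 4.68e-05), or 0.11 after the length and GC correction.

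Gapdh, often used as a reference gene, was called in no comparison with TMM scaling in edgeR over all 12 libraries. It was at 129, 131 and 145 CPM in the control libraries, 120.3, 150.4 and 141 with doxycycline, 119, 104 and 110.2 with dTAG-13 and 118, 138 and 105 with both compounds. The dTAG-13 libraries were below those of control and doxycycline, and all other pairs of groups overlapped. With dTAG-13 the log2 fold change was -0.28 (SE 0.12, adjusted p 0.0669), and it was called with DESeq2 (-0.28), in the fit on these 2 groups alone (-0.28), without any 1 of 3 libraries of the other groups and after the length and GC correction (-0.36). The correction also brought calls for dTAG-13 in doxycycline cells, from -0.19 to -0.34, and for both compounds against control, at -0.30. Its shared sequence, described above, applies to each of these values. Tpi1 was at 1036, 1047, 994 and 905 CPM and Eno1 at 843, 804, 743 and 694 CPM in control, doxycycline, dTAG-13 and both. Their changes with dTAG-13 in doxycycline cells were -0.21 (SE 0.019, adjusted p 6.91e-13), or -0.37 after the length and GC correction, for Tpi1, and -0.21 (SE 0.041, adjusted p 9.23e-04) for Eno1. Gpi1 was at 523, 577, 497 and 462 CPM and fell in that comparison by 0.32 on the log2 scale. Aldoa, at 1622, 1701, 1726 and 1601 CPM, and Pgam1, at 596, 601, 630 and 579 CPM, stayed within 1.08 and 1.09 times between their lowest and highest group means. With dTAG-13 in doxycycline cells they were at -0.088 and -0.055, and at -0.20 and -0.18 after the correction.

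Of the metabolic control enzymes, Pdk1, a kinase that inhibits pyruvate dehydrogenase, was higher in every treated group. It was 192 ± 3.48 CPM in control, 212 ± 3.83 with doxycycline, 241 ± 2.91 with dTAG-13 and 217 ± 5.41 with both (mean ± SD, n = 3 libraries), with log2 fold changes of 0.14 (SE 0.025, adjusted p 1.73e-05) with doxycycline and 0.33 (SE 0.025, adjusted p 1.31e-14) with dTAG-13. In doxycycline cells dTAG-13 went with 0.033 (SE 0.025, adjusted p 0.266), which was 0.23 and called after the length and GC correction. Pfkfb3, which makes the activator of phosphofructokinase, was at 10.2, 8.79 and 7.45 CPM in the control libraries, 7.83, 7.74 and 9.46 with doxycycline, 7.58, 7.14 and 7.85 with dTAG-13 and 5.48, 5.93 and 6.16 with both compounds. Libraries with both compounds were below all others. The change was -0.50 (SE 0.11, adjusted p 1.30e-04), or -0.28 after the length and GC correction, against doxycycline, and -0.35 (SE 0.11, adjusted p 0.0199) against dTAG-13. The latter call was lost without replicate 1 of the combined group (-0.31) and without dTAG-13 replicate 1 (-0.35) or 3 (-0.32). With dTAG-13 alone it was -0.23 (SE 0.1, adjusted p 0.046), a call lost without control replicates 1 (-0.12) or 2 (-0.25) and without dTAG-13 replicates 1 (-0.24) or 2 (-0.20), and under 6 other settings, with -0.064 after the length and GC correction. Pfkfb4, of the same family, was called in no comparison before that correction, at 8.36, 7.94, 8.16 and 8.57 CPM in control, doxycycline, dTAG-13 and both. Its value with dTAG-13 in doxycycline cells was 0.11, and 0.25 and called after it. Ak4, a mitochondrial adenylate kinase, was at 133, 131, 136 and 109.8 CPM and differed with both compounds, at -0.25 (SE 0.031, adjusted p 2.40e-09), or -0.087 after the length and GC correction, against doxycycline and at -0.31 (SE 0.031, adjusted p 2.52e-10) against dTAG-13. With dTAG-13 alone it was at 0.030, and at 0.15 and called after the correction.

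The difference with dTAG-13 was then compared between cells without and with doxycycline, in 2 comparisons that share no library. Of the 35 tested members, 25 were called in both, 15 in the same direction and 10 in opposite directions. Over all genes, 62.1% were called in the first and 64.1% in the second. How many of all genes were called in both, or in opposite directions, was not counted. The counts in this paragraph therefore cannot be read as particular to the members. The 10 lower in both were Egln1, Eno1, Gpi1, Hif1a, Pfkfb3, Pfkl, Pfkm, Pkm, Slc2a3 and Tpi1, and the 5 higher in both were Bnip3, Higd1a, Ldha, Pgk1 and Vegfa. Those with opposite directions were Aldoa, Pgam1 and 8 HIF targets, higher with dTAG-13 without doxycycline and lower with it. After the length and GC correction 26 were called in both, 12 in the same direction and 14 in opposite directions, where 56.1% and 53.5% of all genes were called. The 5 higher in both were then Higd1a, Pdk1, Pgk1, Slc16a3 and Vegfa, and the 14 with opposite directions included Bnip3, Bnip3l, Slc2a1 and Pfkl. For the difference with doxycycline without and with dTAG-13, 18 members were called in both, where 33.5% and 20.4% of all genes were called. Slc2a1 and Slc16a3 were lower and Pfkm higher in both, and the other 15 were higher without dTAG-13 and lower with it.

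The test of the difference itself was the interaction, the dTAG-13 effect with doxycycline minus that without. It was called for 22 of 35 members (62.9%, against 22.9% of all genes, 13.2% positive and 9.64% negative), and all 22 were negative. No member was positive at an unadjusted p under 0.05 in edgeR, 23 were negative at that level, and DESeq2 also called 0 positive. The median over the HIF targets was -0.71, beside 0.005 over all genes. Adm had -1.51 (SE 0.18, adjusted p 2.31e-08), Car9 -1.44 (SE 0.2, adjusted p 4.51e-07) and Ankrd37 -1.04 (SE 0.093, adjusted p 2.30e-11). The number of negative calls was 22 or 23 without any single library and 23 after the length and GC correction. With that correction 24% of all genes were called in either direction. The correlation of the interaction with length was -0.27 over all genes and 0.042 over the members.

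**Figure D5:**
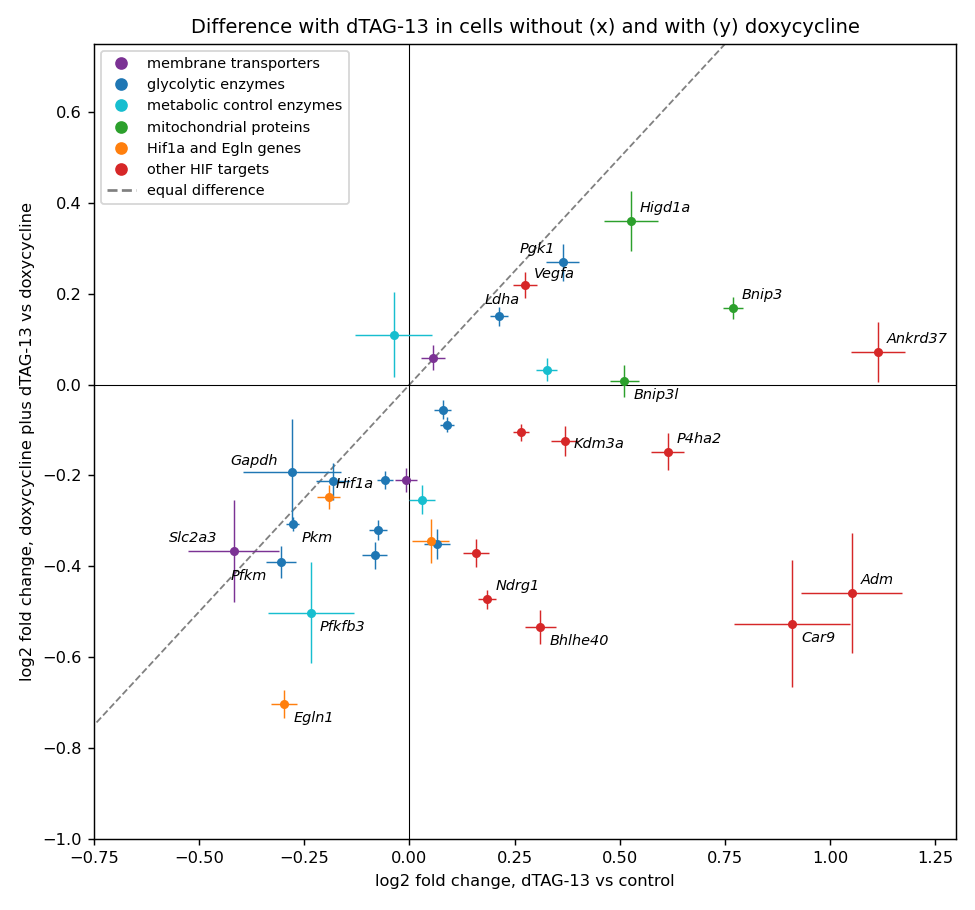
Log2 fold change with dTAG-13 in cells without doxycycline (x) and with doxycycline (y) for the 35 tested genes, with SE as bars, colours for roles and a dashed line where the 2 would be equal. Adm and Car9 lie far below the line, at 1.05 and 0.91 on x and -0.46 and -0.53 on y, while Vegfa, Pgk1, Ldha and Pkm lie close to it.

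A list of 30 other HIF target genes, of which 26 were tested, was read in the same way. With doxycycline 15 were higher and 2 lower, a share of 65.4% beside 33.5% of all genes. With dTAG-13 10 were higher and 5 lower, or 57.7%, below the 62.1% of all genes. With both compounds 11 were lower and 1 higher than with dTAG-13 alone (46.2%, beside 20.4%), and the interaction was negative for 15 and positive for 1 (61.5%, beside 22.9%). Fam162a, a mitochondrial protein, and Ddit4, an inhibitor of mTORC1, rose most with dTAG-13 among those called, at 0.74 (SE 0.029, adjusted p 1.96e-22) and 0.70 (SE 0.062, adjusted p 6.15e-06). These 2 values were not corrected for length and GC. Ero1a, the oxidase of disulphide formation, was at 839.5, 1039, 1109 and 830 CPM in control, doxycycline, dTAG-13 and both. Angptl4, an inhibitor of lipoprotein lipase, rose with doxycycline in both settings, from 6.18 to 15.7 CPM and from 6.31 to 17.7 CPM with dTAG-13. Upstream of the members, 3 of 5 genes of glucose phosphorylation were tested, with 1 higher and 2 lower with dTAG-13 against control. The hexokinases Hk2 and Hk1 fell with dTAG-13. Hk2 was at 169.5, 157, 105 and 85.3 CPM and Hk1 at 185, 205, 134 and 123 CPM in the same order of groups. These levels were not corrected for length and GC either, and longer transcripts had lower values with dTAG-13.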

How the data were processed

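Poly(A) RNA of 12 libraries was measured, 3 technical replicates of each of 4 treated cultures. The authors deposited raw read counts per Entrez gene ID, without normalization. Per the file headers the aligned files came from Subread, and the submitters' processing notes name bcl2fastq 2.17, featureCounts and mm10. The sources used here give neither the strand setting nor how multi-mapping reads were counted.

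Symbols, coordinates and promoters came from RefSeq (GRCm38.p6), and lengths, GC content and shared 50-base windows from GENCODE M21. Counts were tested in R 4.3.3 with edgeR 4.0.16: filterByExpr by group (12910 genes), TMM scaling (factors 0.9647 to 1.0349), 1 mean per group over all 12 libraries, and robust two-sided quasi-likelihood F tests with Benjamini-Hochberg adjustment over all genes, called under 0.05. CPM are on TMM-scaled library sizes. SE were taken from the fold change and F.

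The members, lists and tests were chosen with earlier results of these data known. Values in every library were given for Hif1a, Slc2a1, Pfkl, Gapdh, Ldha and Vegfa. In each of 4 comparisons they were also given for up to 4 called members with the largest positive and 4 with the largest negative change, where the groups did not overlap and the overall level reached 1 CPM. From each list the 2 called genes with the largest change could be named. Arnt, Vim and Hk1 were named after their values were seen. Both compounds against control was added after seeing the data. Libraries of a group differed by more than sampling noise, so all were kept. Alternatives were RLE factors, library size only, DESeq2 1.42.0, 2 other filters, the compared groups alone, a replicate block, a correction for length and GC (splines with 5 degrees of freedom, as an offset), block and correction together, and each library left out. The code was tested on simulated data.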

Additional observations from a re-analysis of the deposited data

Results flagged for a closer look

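For 22 members the difference with dTAG-13 was not the same in cells without and with doxycycline, by the edgeR test of the interaction (log2 difference of the 2 effects, adjusted over all genes). That is 62.9% of the tested members, beside 22.9% of all genes. Among the HIF targets the interaction was -1.51 for Adm, -1.44 for Car9, -1.04 for Ankrd37, -0.84 for Bhlhe40, -0.76 for P4ha2, -0.66 for Ndrg1, -0.53 for Mxi1, -0.49 for Kdm3a and -0.37 for P4ha1. It was -0.60 for Bnip3 and -0.50 for Bnip3l, the mitophagy receptors. For the hydroxylases it was -0.40 (Egln1) and -0.39 (Egln3), and for the control enzymes -0.29 (Pdk1) and -0.28 (Ak4). Among glycolytic enzymes it was -0.41 for Pfkp, -0.29 for Pfkl, -0.25 for Gpi1, -0.18 for Aldoa, -0.15 for Tpi1 and -0.13 for Pgam1. The transporter Slc2a1 had -0.20. Each group is 1 culture, so that a difference between cultures and an interaction of the compounds cannot be told apart.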

How the results depend on the processing

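Most counts of members called stayed within 1.5 times of those reported. With library size scaling, 5 members were lower with dTAG-13 against control, and 0 were higher with both compounds against dTAG-13. Of all genes, 64.8% and 23.7% were then called in these 2 comparisons. Leaving out single libraries gave 0 to 1 higher members in the latter comparison, with Pfkm as the single gene. Other ranges without single libraries were 17 to 19 higher and 2 to 3 lower with doxycycline, 18 to 19 and 8 to 11 with dTAG-13, 5 to 6 and 23 to 24 with dTAG-13 in doxycycline cells, and 24 to 27 lower with both against dTAG-13. The shares of all genes called were then 26.6% to 34%, 57.3% to 61.8%, 59.2% to 63.7% and 15.2% to 21.6%, in that order. Of 210 results for single genes, 158 kept their direction and their side of the threshold throughout.

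Some directions turned. For dTAG-13 against control, library size scaling gave 0.083 for Slc2a1, 0.016 for Gpi1, 0.008 for Pfkl and 0.033 for Tpi1. The length and GC correction gave 0.075 for Slc2a1, 0.093 for Pfkl and -0.014 for Pgam1. For dTAG-13 in doxycycline cells it gave -0.19 for Bnip3, -0.12 for Bnip3l, -0.30 for Ankrd37 and 0.013 for Kdm3a, and for both against control 0.18 for Slc16a3 and -0.015 for Ldha. With the replicate block added to the correction the values were 0.075, 0.094 and -0.014, then -0.19, -0.12, -0.30 and 0.014, then 0.18 and -0.015. The cause was not tested.

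Replicate numbers did not pair the libraries, with correlations of same-numbered deviations from -0.0208 to 0.0801. The replicate block alone gave 18 higher and 2 lower members with doxycycline, 18 and 9 with dTAG-13 (Pfkfb3 lost its call), 5 and 24 with dTAG-13 in doxycycline cells, 1 and 25 with both against dTAG-13, and 22 negative interactions. Of all genes, 32.3%, 61.5%, 63.6%, 19.3% and 21.8% were called with that block, in the same order. Depth limits Car9, Adm, Slc2a3, Pfkfb3 and Pfkfb4, with SE of 0.0915 or more for dTAG-13 against control.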

Other observations

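Beyond the members, 23 of 26 genes of pyruvate use and the pentose phosphate pathway were tested. With doxycycline 3 were higher and 4 lower, a share of 30.4% called, and with dTAG-13 8 were higher and 7 lower (65.2%). These shares were near those of all genes, 33.5% and 62.1%. Mpc1 and Mpc2, the subunits of the carrier that takes pyruvate into the mitochondrion, were higher with dTAG-13 in doxycycline cells, at 0.51 (SE 0.09, adjusted p 4.48e-06) and 0.58 (SE 0.052, adjusted p 1.21e-12) in edgeR. Neither value was corrected for length and GC, and shorter transcripts had higher values in that comparison (Spearman correlation -0.58 over all genes). Mpc2 stood at 27.7, 26.8, 37.3 and 40.0 CPM in control, doxycycline, dTAG-13 and both. Ldhb, the lactate dehydrogenase subunit that favours pyruvate, rose with doxycycline, at 0.32 (SE 0.073, adjusted p 4.97e-04) without dTAG-13 and 0.30 (SE 0.07, adjusted p 0.00158) with it, and stood at 11.4, 14.3, 13.9 and 17.1 CPM.

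Of 13 genes listed as copies or relatives of members, 6 were tested. With dTAG-13 against control 3 of the 6 were called, beside 62.1% of all genes. Eno1b was at 714, 703, 596 and 578 CPM in the same order of groups and Gapdh-ps15 at 162, 180, 132 and 138 CPM, and both were lower with dTAG-13, at -0.26 (SE 0.024, adjusted p 3.22e-12) and -0.30 (SE 0.08, adjusted p 0.011). Eno3, the muscle-type enolase, was higher with it, at 0.47 (SE 0.061, adjusted p 1.01e-08).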
